A study of Gallus gallus with 24 samples.

Results

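Solute carriers are membrane proteins that move amino acids, sugars, ions, vitamins, nucleotides and mitochondrial metabolites across the plasma membrane and the membranes of organelles. In the liver they take up nutrients from portal blood and release glucose and bile acids. They also exchange substrates between cytosol and mitochondria for fatty acid oxidation, ATP supply and, in mammals, the urea cycle. The genes described here are the 120 genes on a chicken cDNA array whose symbol begins with SLC and a digit, except 1 symbol set aside and probes assigned to several genes. They were chosen by symbol alone, although earlier results of these data were known. They belong to 40 families and make up 120 of the 14855 features tested, or 120 of the 6385 genes with a symbol. Of these, 117 encode carriers, while SLC9A3R1 and SLC9A3R2 are scaffold proteins that bind an exchanger and SLC7A6OS is named only for its position opposite a carrier gene. RefSeq lists 305 chicken symbols of this form, so many carriers were not analysed here, among them SLC10A1, SLC13A5, SLC30A5 and SLC39A14 of the liver list. The array gave 199 probes for the 120 genes, with 1 probe for 70 genes and from 2 to 6 for the other 50, whose probes were averaged. All 120 genes passed the filter on missing values.

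Liver RNA came from chickens (Gallus gallus) of a fat line (FL) and a lean line (LL), produced by divergent selection on abdominal fat weight over 7 generations and raised under 1 standard broiler protocol. Each of 24 two-colour arrays held 1 FL bird and 1 LL bird of the same age, at 6 ages spaced 2 wk apart between 1 and 11 wk, with 4 arrays per age. On replicates 1 and 3 the FL sample was in channel 1 (Alexa Fluor 555) and LL in channel 2 (Alexa Fluor 647), and on replicates 2 and 4 the dyes were exchanged. The labels give neither sex nor any pooling of birds, and all birds of a genotype belong to 1 selected line, so that a difference between genotypes is one between these lines. The deposited value is a log ratio of the channels, read here as log2, for which the labels state no direction, and it is not known from them if columns of opposite dye were brought to 1 sign beforehand. Values are therefore given with their sign and never as higher in FL or LL.

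Each feature was described by 2 measures. The turned ratio changes the sign of the arrays with FL in channel 1, so that it follows the genotype if the columns were deposited channel against channel. The common profile is the part of the ratio that keeps its sign on both dye orientations. It follows the dye or the probe if the columns were not turned before deposit, and the genotype if they were, and these readings cannot be told apart from the labels. Both came from 1 limma fit over all 24 arrays, and a call stands for an adjusted p of at most 0.05 over 14855 features.

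Between 18795 and 18970 of 19200 spots had a value on each array. Array medians lay between -0.02 and 0.03 on 23 arrays and at 0.33 on 7 wk replicate 1, where 109 of the 120 genes were positive. The same array resembled 11 wk replicate 4 over the 120 genes (r = 0.80 across genes, which are not independent replicates). The profile of 1 wk replicate 4 ran against the mean of the other arrays (r = -0.52 over the 120 genes), so its direction was not settled. It resembled 1 wk replicate 3 (r = 0.57), which itself had no relation to the mean of the others (r = 0.01 over the 120 genes and -0.04 over all features), so 2 of the 4 arrays at 1 wk departed from the profile. The other 22 arrays had r from 0.34 to 0.82. The spread of a gene over the arrays was ordinary for the solute carriers, with a median SD of 0.164 against 0.167 for all features. A log ratio holds no expression level, so the tissue could not be checked by the level of its markers. Of the erythrocyte markers, to which SLC4A1 belongs, 6 of 23 were measured. In the common profile, where 37.6% of all features were called, 2 of the 6 were called, HBA1 and SLC4A1 itself, both positive. The other erythrocyte markers lay between -0.05 (HBBA) and 0.03 (TAL1). Of 8 hepatocyte markers 7 were measured and 2 were called, both negative, TTR at -0.59 ± 0.08 (SE) and APOA1 at -0.23 ± 0.07. The uncalled ones lay between -0.26 (FGB) and 0.10 (FGG), and the median of the 7 was -0.23. Of 4 macrophage markers 1 was called in each direction, and so was 1 of the 5 connective tissue markers measured. The part of these cells in the values below was not tested, and in liver tissue fewer cells of a type cannot be told apart from less RNA per cell.

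The first comparison asked which solute carriers had a ratio that kept its sign through both dye orientations. In the common profile 52 of 120 genes were called by limma (43.3%, against 37.6% of all features), 28 of them positive (23.3%, against 24.2%) and 24 negative (20.0%, against 13.5%). The median over the 120 genes was 0.01 and that over all features 0.02, and values ran from -0.69 for SLC35E1 to 0.42 for SLC43A3. The values were small, since 8 genes were called and also reached 1.2-fold (7.92% of all features), and the median 95% confidence interval was ± 0.07. The same sign was seen on at least 20 of 24 arrays for 29 genes (18.2% of all features), and on all 24 for SLC43A3 alone. Substrate classes were assigned by family, so a class can hold members that carry other substrates. The plot by substrate class shows the amino acid and sugar carriers that were called on the positive side, and the mitochondrial and nucleotide sugar carriers on both sides.

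**Figure D1:**
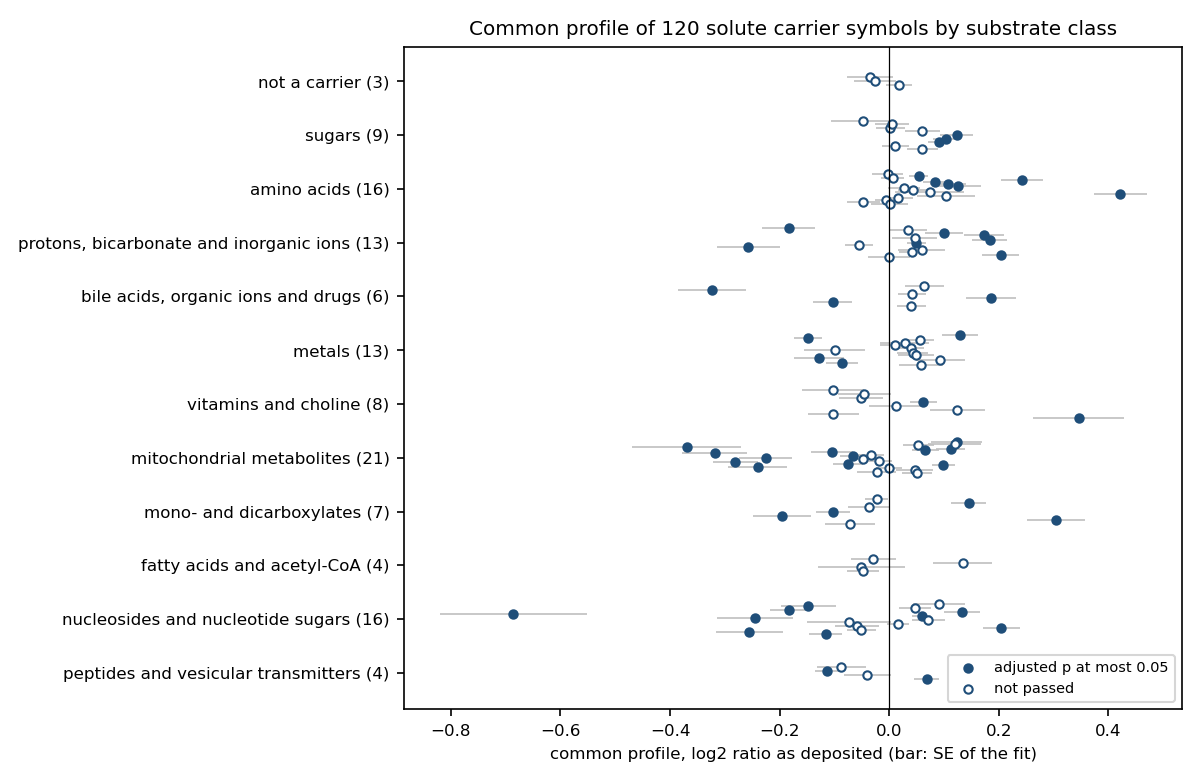
Common profile of the 120 genes by substrate class, with the number of genes in each class in brackets. The x axis is the log2 ratio as deposited, each point is a gene with the SE of the fit over 24 arrays as a bar, and filled points had an adjusted p of at most 0.05. Values run from -0.69 (SLC35E1) to 0.42 (SLC43A3).

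Mitochondrial carriers form the largest class, with 21 genes of the SLC25 family, which exchange metabolites across the inner mitochondrial membrane. Of these, 8 were called negative and 4 positive (57.1%, against 37.6% of all features in either direction), with a median of -0.02. Both aspartate/glutamate carriers, which serve the malate-aspartate shuttle and, in mammals, the urea cycle, were negative. SLC25A12 had a lowest value of -1.25, a median of -0.34 and a highest of 0.99, and 4 of 24 arrays were positive, with 1 wk replicate 4 the highest. Its common profile was -0.37 ± 0.10 (SE, n = 24 arrays, limma adjusted p = 0.00739). SLC25A13, citrin, ran from -0.55 through a median of -0.31 to 0.07, with 3 positive arrays and a common profile of -0.28 ± 0.04 (adjusted p = 6.14e-05).

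The carriers of oxidative phosphorylation gave mixed values. SLC25A6, an adenine nucleotide translocase that exchanges ADP for ATP, ranged from -0.73 to 0.42 with a median of -0.38 and had a common profile of -0.32 ± 0.06 (adjusted p = 4.85e-04). The other translocases SLC25A4 (0.05 ± 0.03) and SLC25A5 (0.05 ± 0.03) did not pass and lay on the positive side. For SLC25A5 1 of 2 probes was called positive when tested singly. SLC25A3, the phosphate carrier, had -0.23 ± 0.05 (adjusted p = 0.00145), although its 2 probes had opposite signs. SLC25A20, which imports acylcarnitines for fatty acid oxidation, ranged from -0.86 to 0.19 with a median of -0.22, 5 positive arrays and a common profile of -0.24 ± 0.05 (adjusted p = 0.00219). On the positive side SLC25A22, a glutamate carrier, had 0.11 ± 0.03 and 22 positive arrays, and SLC25A29, a carrier of basic amino acids, had 0.10 ± 0.02 and 20. SLC25A15, the ornithine carrier of the urea cycle in mammals, had 0.07 ± 0.02 (adjusted p = 0.0345), opposite in sign to citrin.

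Of 16 genes in the amino acid carrier families 6 were called positive and 0 negative (37.5%, against 37.6% of all features in either direction and 24.2% positive). The median of the class was 0.05. SLC43A3 belongs to this class by family, but in humans it is known to carry purine nucleobases. It ranged from 0.03 on 1 wk replicate 4 through a median of 0.41 to 1.02 on 7 wk replicate 1, without a negative array, and had a common profile of 0.42 ± 0.05 (adjusted p = 6.41e-06). The mean was 0.48 ± 0.28 (SD, n = 12) with FL in channel 1 and 0.36 ± 0.20 with FL in channel 2, so the orientations overlapped. SLC38A4, a sodium-coupled neutral amino acid carrier typical of liver in mammals, ranged from -0.06 to 0.65 with a median of 0.23, and had 22 positive arrays and a common profile of 0.24 ± 0.04 (adjusted p = 1.40e-04). SLC38A2 of the same family had 0.12 ± 0.04 (adjusted p = 0.0301), and SLC38A9, a lysosomal arginine sensor, 0.08 ± 0.02. SLC7A5, the light chain of the large neutral amino acid carrier, had 0.05 ± 0.02 over 6 probes (adjusted p = 0.0228). SLC7A2, a cationic amino acid carrier of liver, had -0.01 ± 0.02 and did not pass.

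The 16 carriers of nucleosides and nucleotide sugars, most of which supply the Golgi and the endoplasmic reticulum, were the class with the widest range. Of these, 3 were called positive and 6 negative (56.2%, against 37.6% of all features in either direction). SLC35E1, an orphan member, ranged from -1.95 through a median of -0.72 to 1.35, and its common profile was -0.69 ± 0.13 (1.61-fold, adjusted p = 7.63e-04). Only 1 wk replicate 4 (1.35) and 3 wk replicate 1 (0.08) were positive, and the former was the highest value of the gene by far. SLC35B1, which brings ATP into the endoplasmic reticulum in mammals, had -0.26 ± 0.06, SLC35E2B, an orphan, -0.18 ± 0.03 and SLC35B3, a carrier of the sulfate donor PAPS, -0.12 ± 0.03, each with 3 or 4 positive arrays. SLC35C2 (-0.25 ± 0.07) and SLC35C1, the GDP-fucose carrier (-0.15 ± 0.05), were also called. On the positive side SLC35B4, a carrier of UDP-xylose and UDP-N-acetylglucosamine, had 0.20 ± 0.03 and SLC35F6 0.13 ± 0.03, both with 22 positive arrays.

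Carriers of ions, metals and vitamins were called in both directions. Of 13 carriers of protons, bicarbonate and inorganic ions, 5 were called positive and 2 negative (53.8%, against 37.6% of all features). SLC12A4, a potassium/chloride cotransporter, had 23 positive arrays, a range from -0.11 to 0.86 with a median of 0.15, and a common profile of 0.20 ± 0.03 (adjusted p = 1.94e-04). SLC4A1, the anion exchanger band 3 of the red cell, ranged from -0.10 to 0.81 with a median of 0.13, and had 20 positive arrays and a common profile of 0.17 ± 0.04 (adjusted p = 0.00128). The hemoglobin genes among the erythrocyte markers gave 0.13 ± 0.05 for HBA1, which was called, and -0.05 ± 0.04 for HBBA, which was not. SLC4A3, a related anion exchanger, had 0.18 ± 0.03, whereas SLC4A4, the sodium/bicarbonate cotransporter, had -0.26 ± 0.06 (adjusted p = 0.00181). SLC8B1, the sodium/calcium exchanger of mitochondria, had -0.18 ± 0.05 with all 4 probes negative, 2 of them called.

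Of 13 metal carriers 1 was called positive and 3 negative (30.8%, against 37.6% of all features). SLC48A1, a heme carrier, ranged from -0.45 to 0.06 with a median of -0.14 and had a common profile of -0.15 ± 0.03 (adjusted p = 2.76e-04). Ferroportin, SLC40A1, the exporter of iron, had 0.04 ± 0.02 and did not pass, although 1 of its 3 probes was called positive when tested singly. The SLC30 family, zinc carriers apart from the manganese exporter SLC30A10, gave 1 call among 7, the negative SLC30A4 (-0.13 ± 0.05). Among 8 carriers of vitamins and choline 2 were called (25%, against 37.6% of all features in either direction), both positive. SLC23A2, a sodium/ascorbate carrier, ranged from -0.41 on 1 wk replicate 4 through a median of 0.30 to 1.71 and had 0.35 ± 0.08 (adjusted p = 0.00337). The other ascorbate carrier, SLC23A1, had -0.10 ± 0.06 and did not pass.

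Carriers of energy substrates and bile acids included several of the best known hepatic ones. Of 9 sugar carriers 3 were called (33.3%, against 37.6% of all features in either direction), all positive, with a median of 0.06. SLC37A4, which brings glucose 6-phosphate into the endoplasmic reticulum for glucose release, had 0.10 ± 0.02 and SLC37A3 of its family 0.09 ± 0.02 (adjusted p = 0.00326 and 0.00165). SLC2A2, the glucose carrier GLUT2 of the hepatocyte, ranged from -0.16 to 0.33 with a median of 0.05, and its 0.06 ± 0.03 did not pass (adjusted p = 0.104). Monocarboxylate carriers diverged within their family, with 2 of 7 mono- and dicarboxylate carriers called in each direction (57.1%, against 37.6% of all features). SLC16A8 had 0.30 ± 0.05 (23 arrays, since 1 value was missing) and SLC16A3 0.14 ± 0.03, both lactate carriers. Against these stood -0.20 ± 0.05 for SLC16A12, a creatine carrier in mammals. SLC16A1, the widespread lactate carrier, had -0.02 ± 0.02 and did not pass, although 1 of its 2 probes was called negative when tested singly.

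SLC51A, a subunit of the exporter that releases bile acids into blood, ranged from -0.85 to 0.46 with a median of -0.37 and had -0.32 ± 0.06 with 4 positive arrays (adjusted p = 6.03e-04). SLC22A7, an organic anion carrier of liver, had 0.04 ± 0.03 and did not pass. None of the 4 carriers of fatty acids and acetyl-CoA was called by limma, with 0.13 ± 0.05 for SLC27A1 (adjusted p = 0.0528, and from 0.0190 to 0.0996 with each array left out), -0.05 ± 0.08 for SLC27A2 and -0.03 ± 0.04 for SLC27A4, the fatty acid transport proteins. For SLC27A1 1 of 2 probes was called positive when tested singly. SLC15A4, which carries peptides and histidine out of lysosomes, had -0.11 ± 0.02 (adjusted p = 8.48e-04) and 3 positive arrays. The 3 genes that are not carriers gave no call, with SLC9A3R2 at -0.03 ± 0.04.

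**Figure D2:**
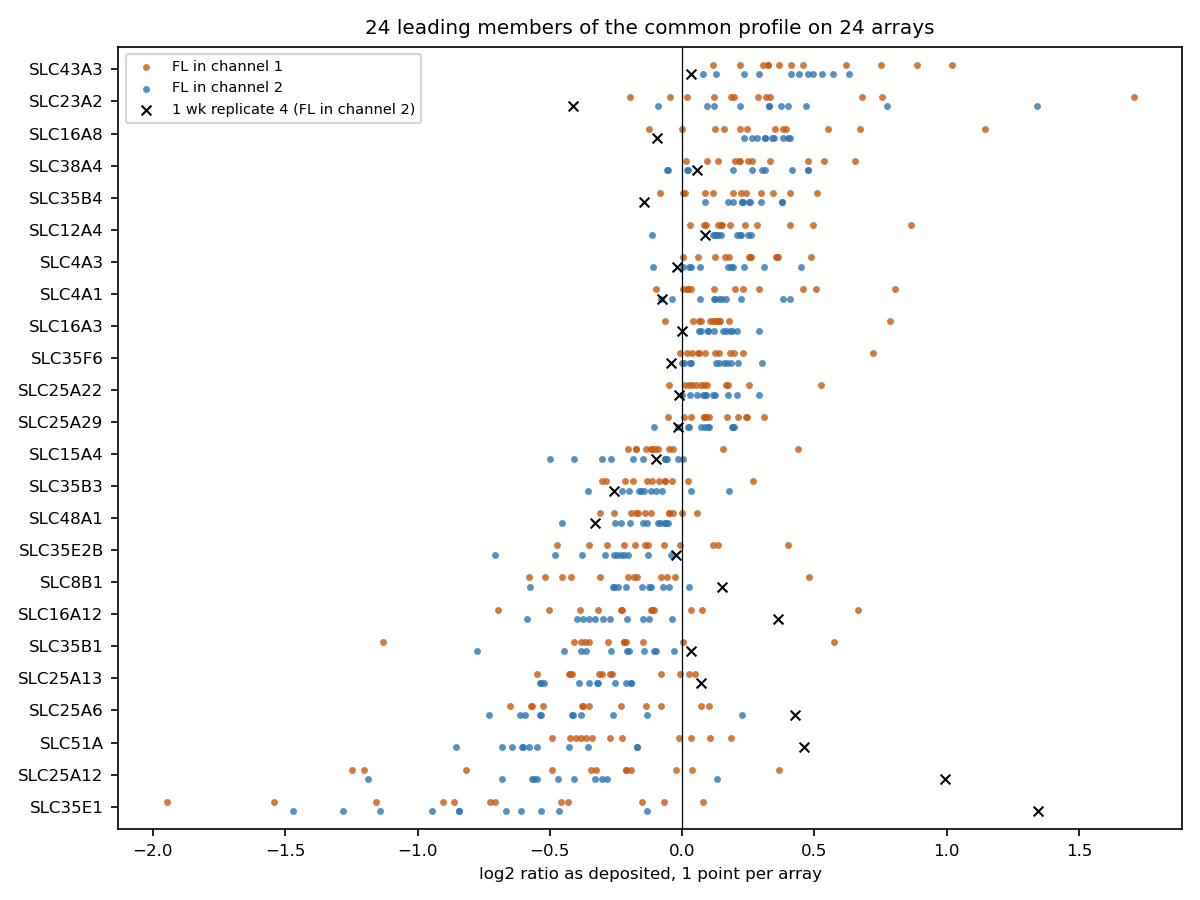
Deposited log2 ratios of the 24 leading genes of the common profile, 12 in each direction, with 1 point for each of 24 arrays (x axis) and 1 line for each gene (y axis). Colours give the channel that held FL, and crosses mark 1 wk replicate 4, which had the opposite sign in 16 of the 24 genes.

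The 24 leading genes were chosen for holding their sign on at least 20 arrays. Of their 575 values 66 had the sign opposite to the gene's common profile. Those values were not spread evenly, since 1 wk replicate 4 held 16, 1 wk replicate 3 held 8, 7 wk replicate 1 held 7 and 5 wk replicate 3 held 6, whereas 6 arrays held 0. With the sign of 1 wk replicate 4 turned, 49 genes were called, 45 of them among the 52, and without that array 55. Over all features the count also moved, from 4995 to 5996 with each array left out, against 5591 with all arrays. The count over all features with 1 wk replicate 4 turned is not given here. Turning the sign of 1 wk replicate 4 left the counts of the comparisons below as they are given, with 2 genes at 7 wk, 2 between ages as deposited and 0 elsewhere.

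Probes of the same gene often gave different values, which limits what the gene averages say. Among 50 genes with several probes the median distance between the lowest and highest probe was 0.19, and in 21 genes it exceeded 0.2. For SLC43A3 one probe had 0.81 ± 0.08 and was positive on 24 arrays, while the other had 0.03 ± 0.03 and was positive on 15. The 4 probes of SLC25A13 had -0.75 ± 0.09, -0.31 ± 0.06, -0.08 ± 0.04 and 0.01 ± 0.03, so that 2 of them carried the call. The 4 probes of SLC25A6 were all negative, from -0.43 to -0.18, and 3 were called. For SLC38A4 1 of 3 probes was called, for SLC25A22 2 of 4, and for SLC16A3, SLC35F6 and SLC37A4 1 of 2 each. In SLC38A4 and SLC4A2 a probe had too few values to be tested singly, so their distances rest on the other probes.

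In 5 genes probes were called in both directions: SLC25A3 (-0.58 ± 0.09 and 0.12 ± 0.04), SLC25A39, a mitochondrial carrier linked to glutathione import (0.40 ± 0.07 and -0.16 ± 0.05), SLC9A3R2 (-0.22 and 0.15), SLC25A10 (-0.14 and 0.13) and SLC7A3 (-0.12 and 0.06). The sign in these genes depends on which probe is read, and the gene average combines probes of both signs. The 10 pairs of spots that repeat 1 accession differed by a median of 0.11 and by up to 0.36 (SLC39A13), with r between -0.25 and 0.74 over the 24 arrays. The median absolute value of the 120 genes in the common profile was 0.07, and 4 of the 10 pairs differed by less than that. With each probe tested singly, 69 genes had at least 1 called probe, including all 52. A gene with several probes counted if any of them was called, so the rise follows in part from this rule. The share of all features called in that way is not given here.

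**Figure D3:**
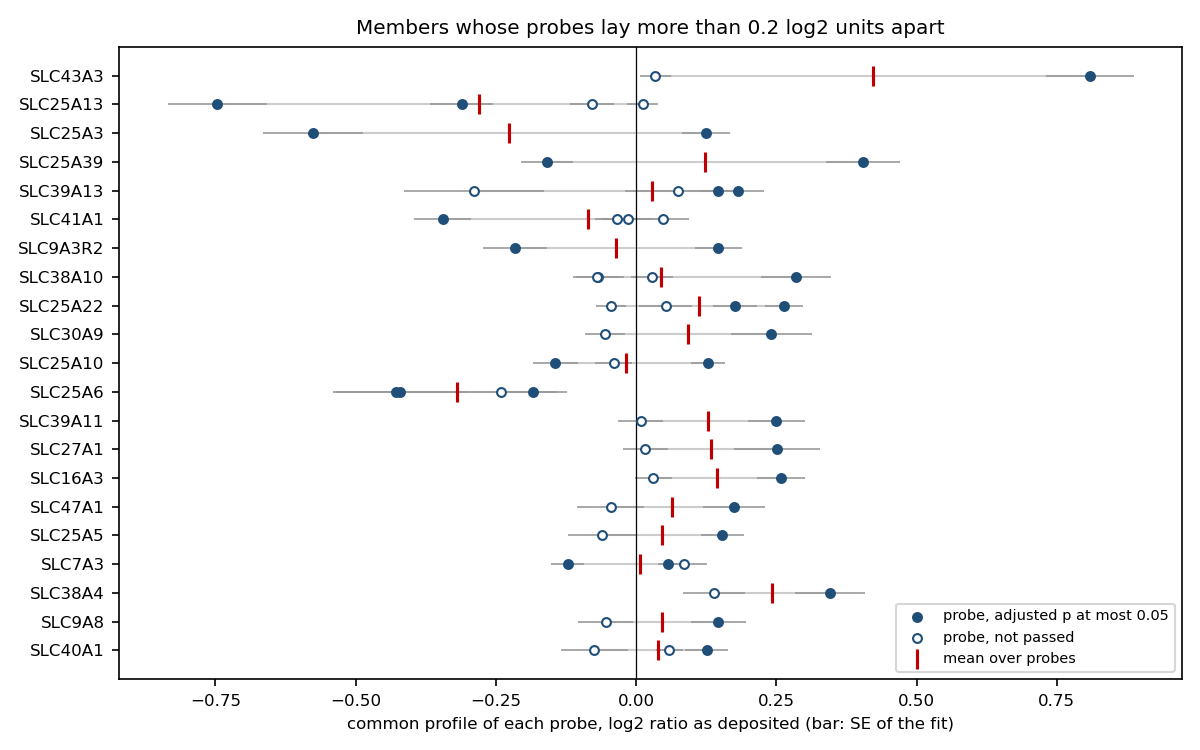
Common profile of each probe (points, with the SE of the fit as a bar, log2 ratio as deposited on the x axis) for the 21 genes whose probes lay more than 0.2 apart (y axis). Red bars are gene averages, and filled points are called probes. The probes of SLC43A3 lay at 0.03 and 0.81.

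Differences between FL and LL irrespective of age were asked of the mean turned ratio. No solute carrier was called by limma (0 of 120, and 0% of all features), and 3 genes (2.5%, against 3.34% of all features) had an unadjusted p under 0.05. Values over the 120 genes ran from -0.11 to 0.08 with a median 95% confidence interval of ± 0.07. The smallest p-values belonged to SLC15A4 with -0.06 ± 0.02 (unadjusted p = 0.0113), which was negative on 13 of 24 arrays, and to SLC35E2B with -0.08 ± 0.03 (unadjusted p = 0.0261), which was negative on 15. Both had an adjusted p of 1.00. Read as already turned before deposit, the columns gave 56 called genes (46.7%, against 41.8% of all features under that reading), 33 of them positive, so the answer rests on the direction that the labels do not state.

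Each age was then compared by itself. At 7 wk 2 of 120 genes were called (1.67%, against 1.10% of all features), both negative. SLC15A4 had turned values of -0.44, -0.41, -0.16 and -0.50 on replicates 1 to 4. All 4 were negative, while at every other age its replicates had both signs. The mean turned ratio of the 4 arrays was -0.37 ± 0.05 (SE of the fit, adjusted p = 0.00726). Here and below, the SE of a mean at a single age came from the limma fit to all arrays and ages. It does not give the spread of the 4 replicates of that age alone. SLC35E2B had -0.40, -0.29, -0.12 and -0.71, also all negative, with -0.38 ± 0.09 (adjusted p = 0.0394). With the 4 arrays of this age fitted alone, neither gene passed (limma adjusted p = 0.925 for both). At the other ages the mean of SLC15A4 lay between -0.03 and 0.02 and that of SLC35E2B between -0.13 and 0.05.

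Values at 7 wk were negative as a whole. An unadjusted p under 0.05 was found for 28 of the 120 genes (23.3%, against 18.6% of all features). Of the 120 genes 99 were negative with a median of -0.08, and so were 80.6% of all features with a median of -0.08. Replicate 1 of this age is the array that was not centred. With arrays centred on their medians, SLC15A4 had -0.30 (adjusted p = 0.0272) and SLC35E2B -0.30 (adjusted p = 0.152). Without 7 wk replicate 1 the values were -0.31 (adjusted p = 0.0475) and -0.31 (adjusted p = 0.236), and without it and 11 wk replicate 4 neither passed (adjusted p = 0.0637 and 0.265). Without 7 wk replicate 3, 16 solute carriers were called (13.6%, against 10.1% of all features), so the count at this age depends on single arrays throughout the table. Read as already turned, the columns left neither gene called at 7 wk, with -0.08 for SLC15A4 (adjusted p = 0.584) and -0.12 for SLC35E2B (adjusted p = 0.472).

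**Figure D4:**
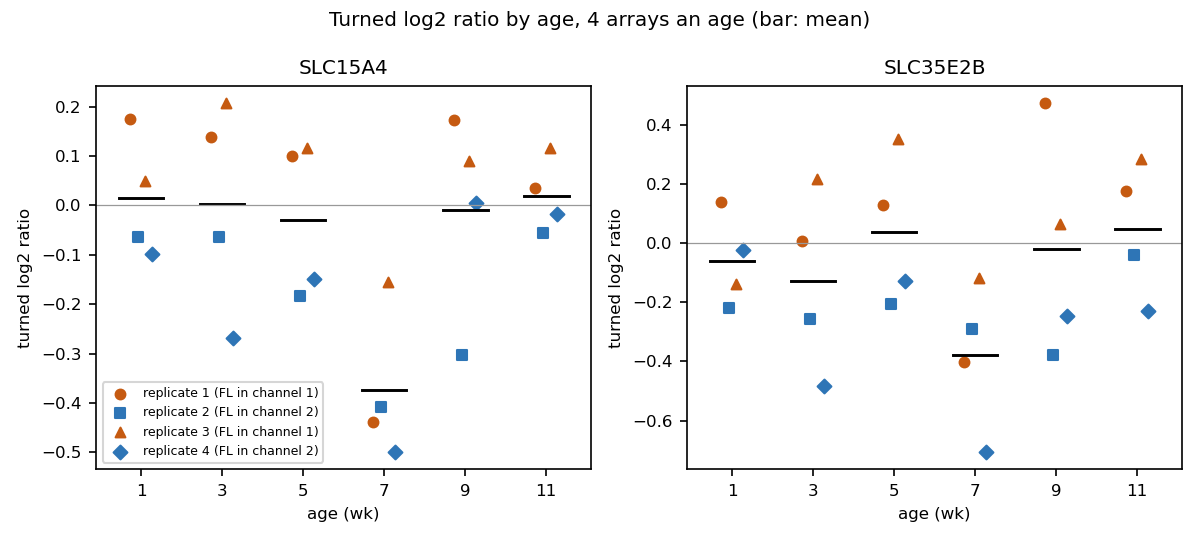
Turned log2 ratios (y axis) of SLC15A4 and SLC35E2B at 6 ages (x axis, wk), with 1 point per array, coloured by the channel that held FL, and the mean of 4 arrays as a bar. At 7 wk all 4 arrays were negative for both genes.

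At 1, 3, 5, 9 and 11 wk limma called 0 of 120 genes, against 0% of all features at 1, 3, 5 and 11 wk and 0.00673% at 9 wk. The median 95% confidence interval at a single age was ± 0.17, against ± 0.07 for the mean over ages. An unadjusted p under 0.05 was found for 0 solute carriers at both 1 wk (0.464% of all features) and 5 wk (1.17%). It was found for 1 at 3 wk (0.833%, against 0.828%), for 3 at 9 wk (2.5%, against 3.25%) and for 2 in the oldest birds (1.67%, against 3.04%).

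The genes with the smallest p at these ages show how far replicates differed. At 1 wk SLC30A10, a manganese exporter, had turned values of 0.55, -0.16, -0.19 and 0.76 on replicates 1 to 4 and a mean of 0.24 ± 0.14. This mean changed to -0.14 with the sign of 1 wk replicate 4 turned. At 3 wk SLC13A3, a dicarboxylate carrier, had 0.00, -0.26, -0.11 and -0.62 (-0.25 ± 0.09), and at 5 wk SLC25A6 had 0.08, -0.59, -0.07 and -0.53 (-0.28 ± 0.14), where the arrays with FL in channel 2 were the lower ones. At 9 wk SLC38A10 of the neutral amino acid carriers was positive on all 4 arrays, with 0.09, 0.20, 0.13 and 0.24 (0.17 ± 0.07). SLC25A33, a pyrimidine nucleotide carrier of mitochondria, had -0.40, -0.06, 0.06 and -0.21 at the same age (-0.15 ± 0.06). At 11 wk SLC34A1, a sodium/phosphate carrier, was negative on all 4 arrays with -0.03, -0.11, -0.22 and -0.10 (-0.11 ± 0.04). SLC4A1 had -0.81, -0.04, -0.23 and 0.12 (-0.24 ± 0.09), where replicate 1 gave most of the difference. The remaining genes named by rank were SLC25A32 at 1 wk (-0.09 ± 0.06), SLC35E2B at 3 wk (-0.13 ± 0.09) and SLC25A3 at 5 wk (-0.19 ± 0.12). The adjusted p was 1.00 for each gene in this paragraph.

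Whether the turned ratio changed with age was tested by an interaction and by a linear trend. The interaction gave 0 called genes (0% of all features), and 5 solute carriers had an unadjusted p under 0.05 (4.17%, against 3.96% of all features). SLC15A4 had the smallest p, with means that differed by 0.39 between the lowest and highest age and an adjusted p of 0.523, so the 7 wk value of this gene was not shown to differ from the other ages. SLC38A10 followed with a range of 0.37 and an unadjusted p of 0.0186, and its range was 0.24 without 7 wk replicate 1. The trend from 1 to 11 wk gave 0 called genes (0% of all features) and 0 with an unadjusted p under 0.05 (1.58% of all features). The smallest p-values belonged to the ornithine carrier SLC25A15, with a fitted difference of 0.12 ± 0.07 over the whole period, and to SLC43A2, a neutral amino acid carrier, with -0.14 ± 0.08, and neither passed.

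The last comparison asked whether the deposited ratio, without turning, differed between ages. It called 2 of 120 genes (1.67%, against 4.89% of all features). Each array holds both genotypes at 1 age, so this is a change of the ratio with age and not of expression with age. As for the common profile, a ratio of 1 sign on both orientations follows the dye or the probe if the columns were not turned before deposit. It follows the genotype only if they were, and which of these changed with age was not tested. SLC27A1, a fatty acid transport protein of muscle and fat in mammals, had at 7 wk 0.81, 0.34, 0.46 and 0.55 on replicates 1 to 4. In the youngest birds, at 1 wk, it had -0.07, 0.02, -0.20 and -0.27, followed by 0.08, 0.08, 0.24 and 0.13 at 3 wk and -0.06, -0.01, -0.01 and 0.02 at 5 wk. Later it had 0.07, 0.06, 0.10 and 0.28 at 9 wk and 0.23, -0.01, 0.02 and 0.34 at 11 wk. All 4 arrays at 7 wk lay above the 20 arrays of the other ages, with the highest of these at 0.336 and the lowest at 7 wk at 0.344. The 7 wk mean was 0.54 ± 0.07, and the remaining 5 means lay between -0.13 and 0.14 (adjusted p = 0.00461), and with arrays centred on their medians the range between ages was 0.58 (adjusted p = 0.00224). One probe reached 0.79 at 7 wk and the other 0.29, and neither was called singly (adjusted p = 0.0620 and 0.149).

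SLC35B2, a Golgi carrier of PAPS, had at 11 wk -0.65, -0.49, -0.61 and -0.72 on replicates 1 to 4. At 9 wk it had 0.37, -0.36, -0.40 and -0.73, where replicate 1 stood apart, and from 1 to 7 wk its lowest value was -0.29. All 11 wk values thus lay below those of the 4 youngest ages, and 9 wk spanned both. The means of the 4 youngest ages were 0.00, 0.24, 0.12 and 0.08, followed by -0.28 at 9 wk and -0.62 at 11 wk, each ± 0.11 (adjusted p = 0.0144). Both orientations took part, since replicates 1 and 3 (FL in channel 1) and 2 and 4 (FL in channel 2) were negative at 11 wk. The plot of SLC27A1 and SLC35B2 shows that in neither gene did 1 orientation carry the difference. With 7 wk replicate 1 left out, both remained called and 5 further genes passed (5.93% in all, against 8.79% of all features), among them SLC43A3, SLC25A13 and SLC52A3, a riboflavin carrier.

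**Figure D5:**
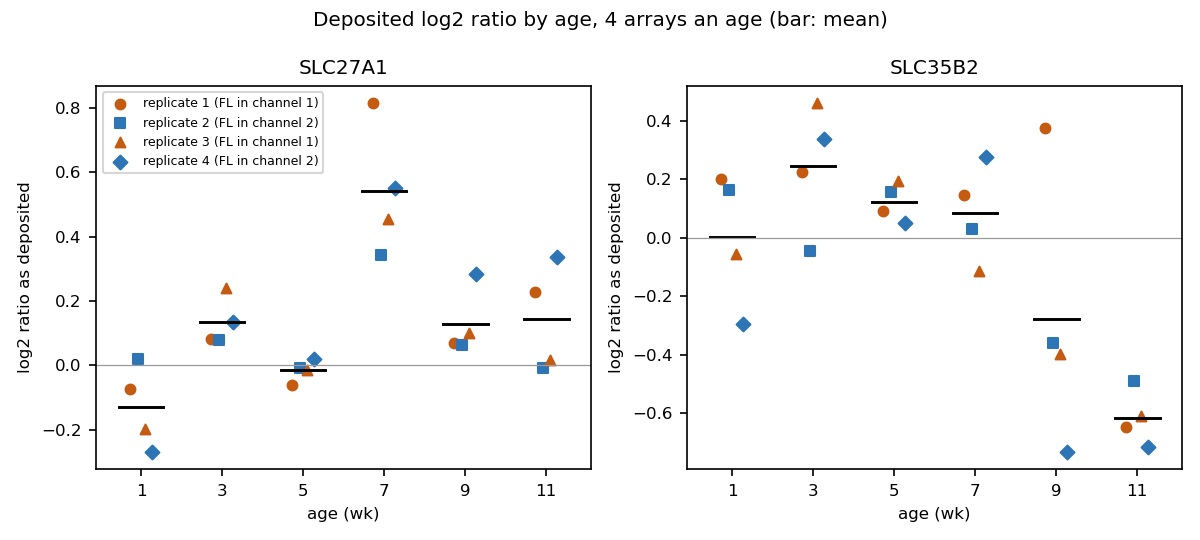
Deposited log2 ratios (y axis), without turning, of SLC27A1 and SLC35B2 at 6 ages (x axis, wk), with 1 point per array, coloured by the channel that held FL, and the mean of 4 arrays as a bar. SLC27A1 was highest at 7 wk (0.54) and SLC35B2 lowest at 11 wk (-0.62).

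Other genes of membrane transport were counted in the common profile beside the solute carriers. In that profile 24.2% of all features were called positive and 13.5% negative. Of 4 organic anion transporters of the SLCO family 1 was called, SLCO1A2 at -0.65 ± 0.11 (adjusted p = 1.63e-04). Of 18 ABC transporters 5 were called positive and 4 negative, with a median of 0.04, of 13 P-type ATPase genes 1 in each direction, and the 1 aquaporin, AQP3, was not called. None of these 36 genes was called by limma in the mean turned ratio or at any age.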

How the data were processed

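Liver RNA of 24 FL and LL pairs was measured on two-colour cDNA arrays with 19200 spots. The authors deposited 1 normalized log ratio per spot and array, taken here as log2; the base, the direction and all steps before deposit (scanning, background, normalization) are not given in the sources used here. Values were used as deposited. Gene symbols came from the platform's probe annotation (10601 probes with a symbol and 8599 without), and all 120 members matched RefSeq by gene number. No coordinates or sequences were used. Probes of a gene were averaged, and features missing on more than 1 of the 4 arrays of an age were dropped (14855 of 15027 remained). Among the members 2 values were missing, and no value was imputed.

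Features were fitted in limma (version 3.58.1, R 4.3.3) with 6 age coefficients multiplied by the dye orientation (+1 with FL in channel 2, -1 with FL in channel 1) and 1 common term. The columns without turning were tested for age with 1 orientation term. Tests were two-sided, moderated, and adjusted by Benjamini-Hochberg over all features at 0.05. Replicates are separate birds per the labels. The number of arrays limits the precision. The model was run on simulated data with independent noise. Those data held no dye effect, no array off centre and no arrays that resemble each other, so the run does not cover these. Alternatives covered centring, scaling, array weights, filters, single probes, the direction of 1 array and of all, a replicate block, and each array left out.

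The members and lists were chosen with earlier results of these data known. Genes are named by rule: in the common profile up to 12 called genes of each sign that held this sign on 20 or more arrays, the smallest p of each class, a fixed list of liver carriers and genes whose probes were all called with opposite signs. Elsewhere called genes are named, or the 2 smallest p. Further genes (SLC4A4, SLC23A1, SLC25A4, SLC25A5, SLC25A15, SLC30A4, SLC35C1, SLC35C2, SLC25A10, SLC38A9, SLC39A13, SLC7A3 and SLC7A5 in the common profile, SLC52A3 between ages) were named after their values were seen.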

Additional observations from a re-analysis of the deposited data

Results flagged for a closer look

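A sample far from the other 3 of its age was found in 3 of 36 groups tested, where chance alone flags about 1 in 20. The median over all spots of 7 wk replicate 1 was 0.331, against -0.004 to 0.018 on the other arrays of that age, and the median over the 120 solute carriers was 0.333, against -0.01 to 0.001. At 3 wk the median over the solute carriers of replicate 1 was -0.0106, against 2.5e-05 to 0.00112 on the others, a distance that is small beside the values of single genes.

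The deposited ratio differed between ages for SLC27A1 (limma adjusted p = 0.00461) and for SLC35B2 (adjusted p = 0.0144), as the report describes. For SLC13A3 all 4 turned values were positive at 5 wk (mean 0.05) and all 4 negative at 11 wk (mean -0.11), a difference of 0.161 that was not tested by itself.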

How the results depend on the processing

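The count of solute carriers in the common profile, 52, lay between 49 and 69 under 12 other settings and between 43 (without 11 wk replicate 3) and 55 (without 1 wk replicate 4) with each array left out. The 69 came from single probes, where a gene counted if any of its probes was called. The shares of all features under the 12 settings are not given here. Over all features the count went from 4995 to 5996 with each array left out, against 5591 in the main fit. The count of 2 at 7 wk became 1 with array weights or with arrays centred, 0 with arrays centred and scaled, with a fit of each age by itself, without both look-alike arrays (7 wk replicate 1 and 11 wk replicate 4) and without these and 1 wk replicate 4, an alternative chosen after seeing the data, and 26 (21.7%, against 23.8% of all features), neither of the 2 among them, if the columns had been turned before deposit. Leaving out each array gave from 1 to 16 at 7 wk, with 16 without 7 wk replicate 3 (10.1% of all features), 5 without 7 wk replicate 2 and 1 without any of 8 arrays (1 wk replicates 1 and 2, 3 wk replicates 1 and 2, 5 wk replicate 1, 7 wk replicates 1 and 4, and 11 wk replicate 4). At 5 wk 1 gene, SLC25A6, was called in the fit of that age by itself, which rests on 4 arrays. The main fit, a different model, called 0% of all features at this age. The share of all features in the fit of 5 wk alone is not given here, so the call cannot be set against it. With each array left out of the main fit, the limma adjusted p of SLC25A6 at 5 wk was at least 0.99984.

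Taken as already turned, the columns gave 13 called genes at 3 wk (10.8%, against 6.43% of all features under that reading), 21 at 9 wk (17.5%, against 16.2%), 10 at 11 wk (8.33%, against 10.5%), 56 for the mean over ages (46.7%, against 41.8%), 2 for the interaction (1.67%, against 5.69%) and 4 for the trend (3.33%, against 5.53%), and 4 values without a call changed sign, namely SLC25A33 at 9 wk (0.019), SLC34A1 at 11 wk (0.0086), SLC4A1 at 11 wk (0.28), and the trend of SLC43A2 (0.18). With 1 wk replicate 4 turned SLC30A10 at 1 wk changed to -0.14. Between ages as deposited, 2 genes became 7 with array weights, with each probe singly or without both look-alike arrays, and 4 with arrays centred, with arrays centred and scaled or without the 3 arrays. The shares of all features under these settings are not given here, so the higher counts show nothing particular to the solute carriers. With each array left out the count was 2 to 7, with 7 without 7 wk replicate 1 (8.79% of all features). Over all features the count in these fits went from 403 to 1295. In the main fit the share was 1.67% of the solute carriers, against 4.89% of all features.

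In the common profile SLC25A39 lost its call in 15 and SLC38A2 in 5 of 24 fits with an array left out, while SLC27A1 gained one in 5 and SLC2A2 in 1. SLC27A1 was also called with 1 wk replicate 4 turned (adjusted p = 0.0150), with a common term for each age (adjusted p = 0.00241) and with the replicate block (adjusted p = 0.0170). The uncalled values near 0 changed sign with an array left out for SLC27A2 (from -0.095 to 2.16e-04) and SLC7A2 (from -0.013 to 0.00118). The cause of these changes was not tested. The replicate numbers did not pair arrays across ages (r between residuals from -0.64 to 0.46). With the replicate block 60 genes were called in the common profile, 2 at 7 wk and 2 between ages. The shares of all features with the replicate block are not given here, so the 60 show nothing particular to the solute carriers.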
